A study of Mus musculus with 8 samples.

Results

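Inhibitory interneurons of the hippocampus were followed through 10 genes that mark them: *Gad1*, *Gad2*, *Slc32a1*, *Pvalb*, *Sst*, *Npy*, *Vip*, *Cck*, *Tac1* and *Penk*. All probes that a RefSeq accession ties to these symbols were taken, which gave 12 of the 55681 probes on the array, 2 each for *Slc32a1* and *Pvalb* and 1 for each of the others. RNA came from the hippocampus of adult male Muta Mouse, a transgenic line that carries a bacterial lacZ reporter, so every mouse in both groups carried it. The 4 BaP-exposed mice received benzo[a]pyrene (BaP), a polycyclic aromatic hydrocarbon, in olive oil by oral gavage at 70 mg/kg bw per day on 3 days, and the 4 control mice received the oil alone. Tissue was taken 24 hr after the last dose. Each sample, in Cy5, was hybridized beside a universal mouse reference RNA, in Cy3, without a dye swap, to 1 of the 8 arrays of a slide.

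Interneurons release GABA onto the principal cells and onto each other, and so set when hippocampal circuits can fire. Glutamate decarboxylases make GABA, a vesicular transporter loads it, and most interneurons also carry a calcium-binding protein or a neuropeptide that names their subtype. Parvalbumin cells contact the soma and axon of pyramidal cells, somatostatin cells contact their dendrites, and many VIP cells contact other interneurons. In whole tissue, fewer cells of a type and less RNA per cell cannot be told apart.

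The level given throughout is the log2 ratio of sample over reference, normalized within each array, and the fold change is the difference in that ratio between BaP-exposed and control mice. For 4 of the 8 arrays, control mice 3 and 4 and BaP-exposed mice 3 and 4, titles and source names give opposite groups. Those 4 arrays are also the second row of the slide. The titles were used here, and values from the arrays whose labels agree are given below. The beta-globin gene *Hbb-bs* was 5.13 and 5.08 in control mice 3 and 4 and 3.23 and 3.40 in BaP-exposed mice 3 and 4, named by title. On the arrays whose labels agree it was 5.45 and 5.06 in control mice and 3.54 and 2.95 in BaP-exposed mice. *Hbb-bs* itself passed the adjusted test with all 8 arrays grouped by title (limma's adjusted p = 0.0021). Which labels are right was not tested. Over all tested probes the median log2 fold change was -0.0016. The reported p-values measure the spread between mice within 1 slide. The labels mention more animals per group than the 4 with an array, and how the 4 were chosen is not given in the sources used here.

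All 12 probes were well above background in Cy5 on all 8 arrays, and 0 were saturated. The reference channel was weaker, and 9 of the 12 probes were well above background there on all 8 arrays. The *Vip* probe reached that mark in the reference on 0 arrays, the dimmer *Pvalb* probe on 3 and the *Tac1* probe on 4, so the denominators of these ratios lay close to background. Markers of hippocampal principal neurons included *Prox1* of granule cells and *Neurod6* of pyramidal cells, and 9 of 9 were well above background on all 8 arrays. So were the 10 genes of a second interneuron list, which holds the markers with *Lhx6* and *Dlx1* in place of *Tac1* and *Penk*.

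None of the interneuron markers passed the test between BaP-exposed and control mice. Of the 10 genes, taken by their brighter probe, 4 were nominally higher and 6 nominally lower in BaP-exposed mice (median log2 fold change -0.06). In the Cy5 channel alone 7 were nominally higher and 3 lower (median 0.09), and with arrays centred on their median 9 were higher and 1 lower, where the median of all tested probes was 0.17. The 12 probes lay between -0.51 for *Tac1* and 0.18 for the dimmer *Pvalb* probe. The call required a 1.5-fold difference at an adjusted p of 0.05 (limma, Benjamini-Hochberg over 32600 probes). Of the 12 probes 0 were called, and their adjusted p ran from 0.679 to 0.995. Over all tested probes 3 (0.0092%) were called. At an unadjusted p of 0.05, 0 of the 12 passed, against 8.7% of all tested probes. For 0 of the 12 did the groups lie apart without overlap, against 5.07% of all tested probes. For 10 of the 12 probes the 95% confidence interval lay within a 1.5-fold change in either direction, a log2 fold change of 0.58, and the other 2 were *Tac1* and the dimmer *Pvalb* probe.

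**Figure D1:**
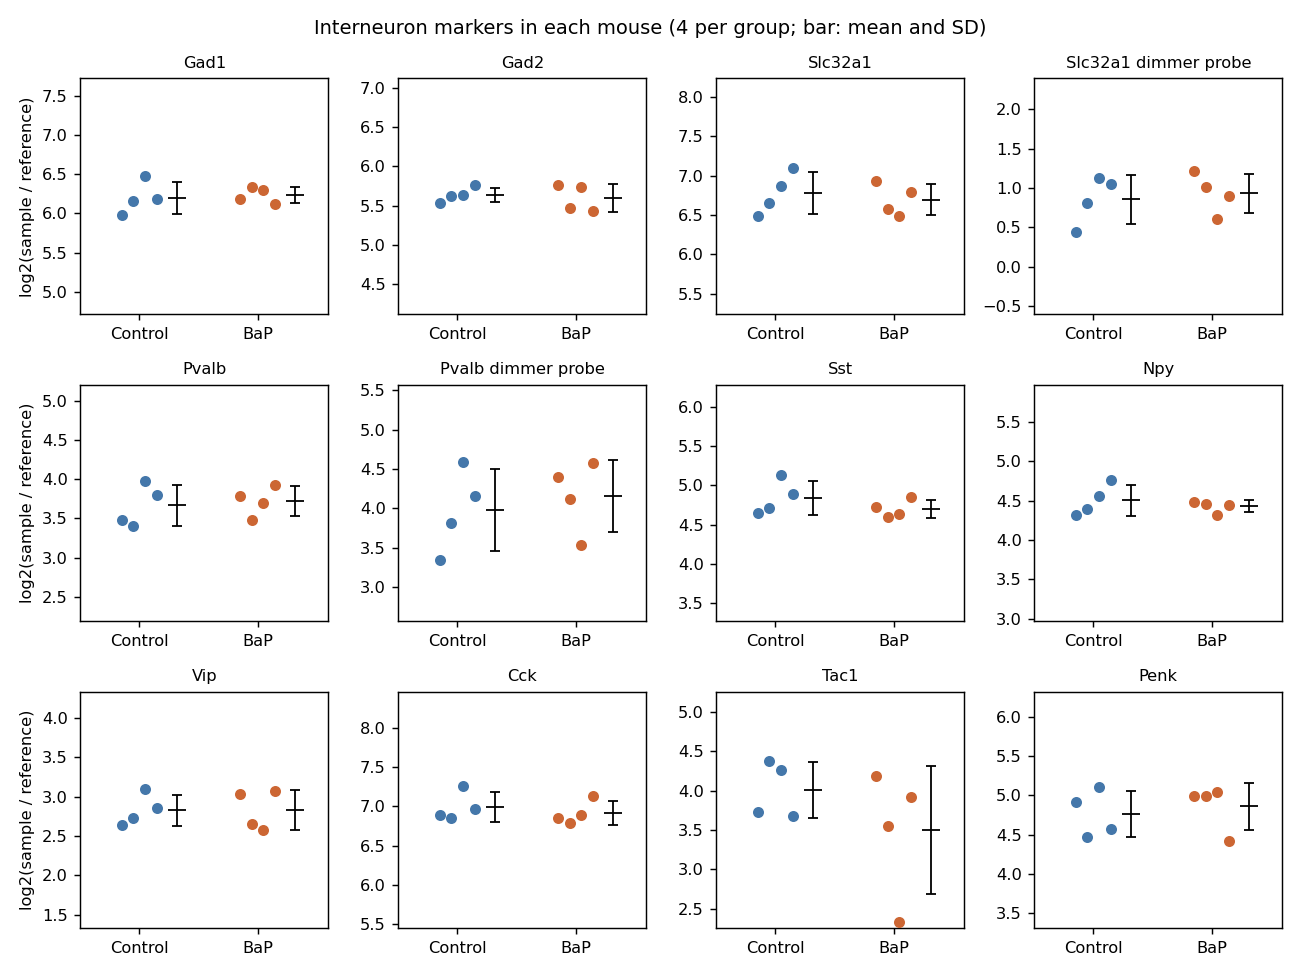
Log2 ratio of sample over reference (vertical axis, each panel 3 log2 units tall) for the 12 probes, in 4 control (blue) and 4 BaP-exposed mice (orange); the horizontal bar and whiskers are the mean and SD. The groups overlap in every panel, and the widest spread is that of *Tac1* in BaP-exposed mice, from 2.34 to 4.19.

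The GABA machinery was measured through 3 genes. *Gad1* encodes GAD67, the decarboxylase that makes most of the GABA in a neuron. Its log2 ratio was 5.98, 6.16, 6.47 and 6.19 in control mice 1 to 4 and 6.18, 6.33, 6.30 and 6.12 in BaP-exposed mice 1 to 4. All 4 BaP-exposed mice fell inside the control range. The log2 fold change was 0.03 (standard error, SE, 0.11, 95% interval -0.21 to 0.28, limma's adjusted p = 0.949).

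*Gad2* encodes GAD65, the decarboxylase at the synaptic terminal. In control mice its log2 ratio was 5.54, 5.62, 5.63 and 5.76, and in BaP-exposed mice 5.77, 5.47, 5.74 and 5.43. BaP-exposed mice held both the highest and the lowest value. Between the groups its log2 fold change was -0.04 (SE 0.10, 95% interval -0.26 to 0.19, limma's adjusted p = 0.94).

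*Slc32a1* encodes the vesicular GABA transporter, which fills synaptic vesicles with GABA and glycine. On its brighter probe the log2 ratio was 6.49, 6.66, 6.87 and 7.10 in control mice and 6.93, 6.58, 6.48 and 6.79 in BaP-exposed mice, with means of 6.78 ± 0.26 and 6.69 ± 0.20 (SD, n = 4 each). The dimmer probe gave 0.44, 0.81, 1.12 and 1.05 in control mice and 1.21, 1.01, 0.61 and 0.90 in BaP-exposed mice. The 2 probes differed in sign, at -0.08 (95% interval -0.40 to 0.24) and 0.08 (95% interval -0.29 to 0.45), and both intervals included 0. In median Cy5 signal the dimmer probe ran from 171 to 267.5, against 14019.5 to 27555.5 for the brighter one.

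The calcium-binding protein parvalbumin, encoded by *Pvalb*, marks fast-spiking basket and axo-axonic cells. On its brighter probe the log2 ratio was 3.49, 3.41, 3.97 and 3.80 in control mice and 3.79, 3.48, 3.70 and 3.93 in BaP-exposed mice. The BaP-exposed mice all lay within the control range, and the log2 fold change was 0.06 (SE 0.14, 95% interval -0.26 to 0.37, limma's adjusted p = 0.928). The dimmer probe spread more widely, from 3.35 to 4.58 in control mice and from 3.53 to 4.57 in BaP-exposed mice. Its log2 fold change was 0.18 with a 95% interval of -0.43 to 0.79, so neither no change nor a 1.5-fold increase lay outside it.

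Of the neuropeptides, *Sst* encodes somatostatin, the peptide of dendrite-targeting interneurons. Its log2 ratio was 4.64, 4.70, 5.13 and 4.89 in control mice and 4.73, 4.60, 4.63 and 4.86 in BaP-exposed mice. The group means were 4.84 ± 0.22 and 4.70 ± 0.12 (SD, n = 4 each), and the ranges overlapped. The log2 fold change was -0.14 (SE 0.12, 95% interval -0.40 to 0.12, limma's adjusted p = 0.736), and the exact permutation test over the 70 assignments of the mice gave p = 0.286 (2-sided, smallest possible 0.0286). Without control mouse 3 the log2 fold change was -0.045, and without control mouse 1 it was -0.21.

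The *Sst* probe was printed as 10 spots on each array, which gives the error of a spot. After outlier spots were left out, 8 to 10 spots per array remained. Their SD within an array was 0.090 to 0.190, and the standard error of an array's mean was 0.029 to 0.063. The control mice differed from each other with an SD of 0.22 and the BaP-exposed mice with an SD of 0.12. The lowest spot of control mouse 3, at 4.89, lay above the highest spot of control mouse 1, at 4.83. The spots of an array share its RNA, labeling and hybridization, so they carry no information on those steps.

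**Figure D2:**
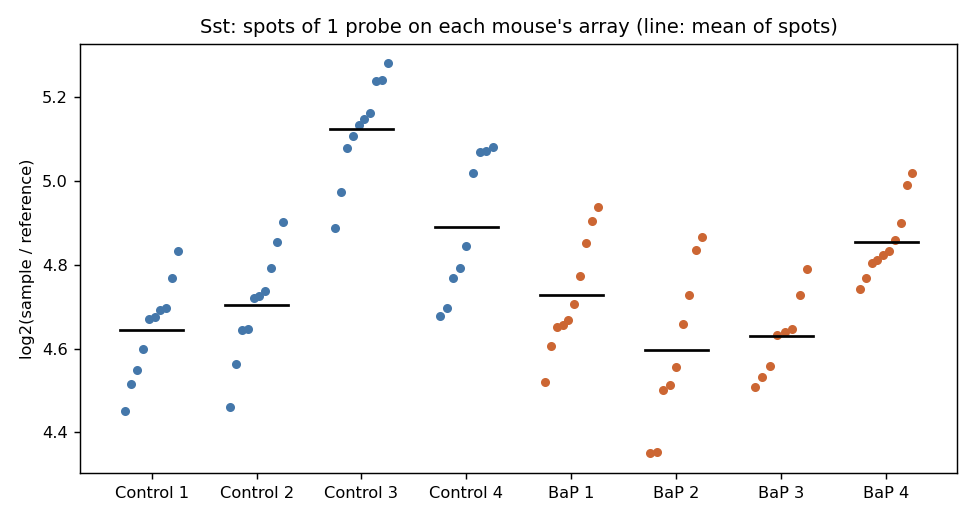
Log2 ratio of sample over reference (vertical axis) of each spot of the *Sst* probe on the arrays of 4 control (blue) and 4 BaP-exposed mice (orange), in order of size within an array; the line is the mean of the spots. Control mouse 3 sits highest, with a mean of 5.13, and the means of the BaP-exposed mice run from 4.60 to 4.86.

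*Npy* encodes neuropeptide Y, which lowers glutamate release and is found in many somatostatin cells and in neurogliaform cells. Its log2 ratio was 4.32, 4.39, 4.56 and 4.76 in control mice and 4.49, 4.46, 4.32 and 4.45 in BaP-exposed mice. The BaP-exposed mice lay close together (SD 0.073, n = 4) inside the wider control range (SD 0.20, n = 4). Its log2 fold change was -0.08 (SE 0.11, 95% interval -0.31 to 0.16, limma's adjusted p = 0.851).

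*Vip* encodes vasoactive intestinal peptide, the peptide of interneurons that target other interneurons. In control mice its log2 ratio was 2.64, 2.73, 3.09 and 2.86, and in BaP-exposed mice 3.03, 2.65, 2.58 and 3.08. The BaP-exposed mice split into a higher and a lower pair, and both means were 2.83. Its log2 fold change was 0.0048 (SE 0.14, 95% interval -0.31 to 0.32, limma's adjusted p = 0.995). With plain background subtraction it was 0.32 (SE 0.22), with the processed signals of the scanner software 0.18 and in the Cy5 channel alone -0.11.

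*Cck* encodes cholecystokinin, which marks a class of basket cells but is also made by pyramidal cells, so in whole tissue it is not a measure of interneurons alone. Control and BaP-exposed values overlapped. The log2 ratio of *Cck* was 6.89, 6.85, 7.26 and 6.97 in control mice and 6.85, 6.78, 6.89 and 7.13 in BaP-exposed mice. Apart from control mouse 3 and BaP-exposed mouse 4, all mice lay between 6.78 and 6.97. The log2 fold change was -0.08 (SE 0.11, 95% interval -0.33 to 0.18, limma's adjusted p = 0.861).

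*Tac1* encodes the precursor of substance P. Its log2 ratio was 3.73, 4.38, 4.26 and 3.68 in control mice and 4.19, 3.55, 2.34 and 3.91 in BaP-exposed mice. BaP-exposed mouse 3 was far below all others, and the rest of its group overlapped the control mice. On that array the single *Tac1* spot had a reference signal of 190, against 68.5 to 97 on the other 7 arrays, while its Cy5 signal of 1050 lay within the 796.5 to 1658.5 of the others. The log2 fold change was -0.51 (SE 0.35, 95% interval -1.29 to 0.26, limma's adjusted p = 0.679) and was -0.13 without BaP-exposed mouse 3. From the Cy5 channel alone it was -0.27.

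*Penk* encodes the precursor of the enkephalins, opioid peptides found in a subset of interneurons. Its log2 ratio was 4.92, 4.48, 5.10 and 4.57 in control mice and 5.00, 4.99, 5.05 and 4.42 in BaP-exposed mice. Of the BaP-exposed mice, 3 lay between 4.99 and 5.05 and mouse 4 was below every other mouse. Between groups the log2 fold change was 0.10 (SE 0.17, 95% interval -0.29 to 0.49, limma's adjusted p = 0.892). It was 0.00083 without control mouse 2 and 0.25 without BaP-exposed mouse 4.

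**Figure D3:**
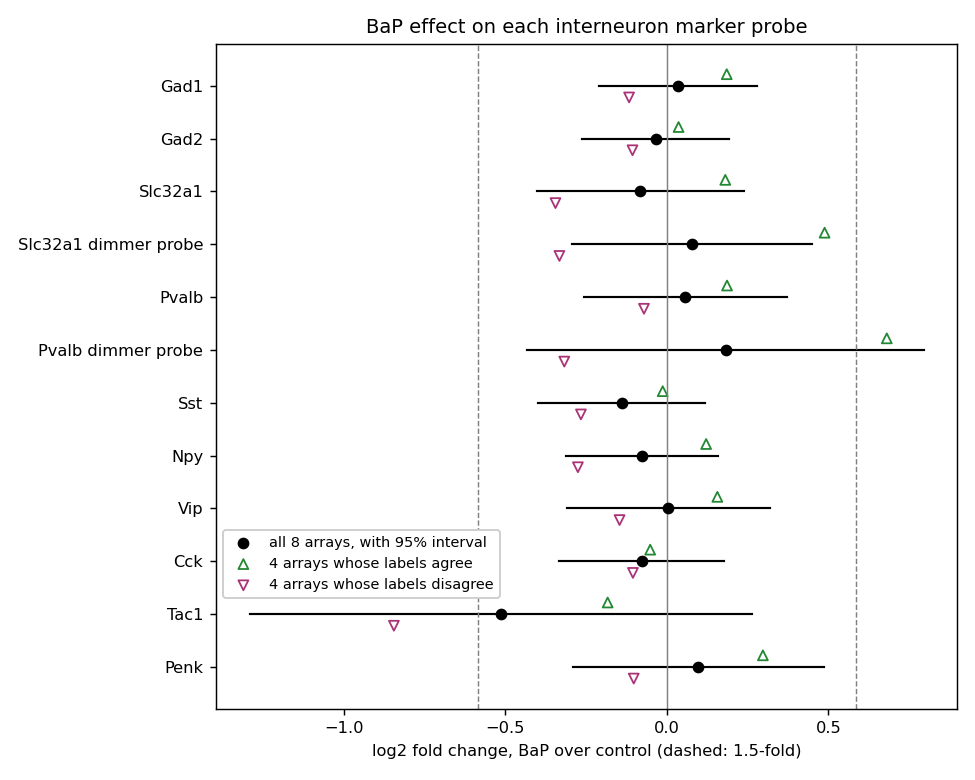
Log2 fold change of BaP-exposed over control mice (horizontal axis) for each probe, with its 95% confidence interval from limma over all 8 arrays (black), and the fold change within the 4 arrays whose labels agree (green) and the 4 whose labels disagree (purple). All 12 intervals include 0, and in every row the green triangle lies to the right of the purple one.

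Because title and source name disagree on 4 arrays, the comparison was also made within each set of 4 arrays, with 2 mice per group. On the 4 arrays whose labels agree, 9 of the 12 probes were nominally higher in BaP-exposed mice. There the dimmer *Pvalb* probe had a log2 fold change of 0.68 (SE 0.20) and the dimmer *Slc32a1* probe one of 0.49 (SE 0.17), with an adjusted p of 0.701 and 0.707 from limma. These were the 2 of 12 at an unadjusted p of 0.05, which 6.95% of all tested probes reached on these 4 arrays. *Sst* had a log2 fold change of -0.01 there, *Npy* 0.12, *Gad1* 0.19 and *Gad2* 0.04.

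On the 4 arrays whose labels disagree, grouped by title, 0 of the 12 probes were higher in BaP-exposed mice. *Sst* had a log2 fold change of -0.27, *Npy* -0.28 and *Slc32a1* -0.34 on its brighter probe, with an adjusted p of 0.803, 0.796 and 0.796 from limma. The difference between the 2 sets was negative for all 12 probes, and for 54.3% of all tested probes. It passed an unadjusted p of 0.05 for 1 of the 12, the dimmer *Slc32a1* probe (difference -0.82, SE 0.24, limma's adjusted p = 0.89), against 4.7% of all tested probes, and an adjusted p of 0.05 for 0 probes on the array. Slide row and label conflict cannot be told apart.

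Grouping by source name in place of title turns the 4 conflicting arrays around, so its fold changes are the differences between the 2 sets above with the sign reversed and halved in size, and all 12 are positive because all 12 differences were negative. They are no separate result. The log2 fold changes ran from 0.03 for *Cck* to 0.50 for the dimmer *Pvalb* probe. Only the dimmer *Slc32a1* probe, at 0.41 (SE 0.11, limma's adjusted p = 0.915), passed an unadjusted p of 0.05, against 4.39% of all tested probes. Neither way of grouping gave a marker that passed the adjusted test.

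The SD between mice of a group, as a median over the 12 probes, was 0.24 in control and 0.20 in BaP-exposed mice. Control mouse 3 held the highest value for 6 of the 10 genes and was above the gene's mean for all 10. Control mouse 1 and BaP-exposed mouse 2 were above the mean for 1 and 2 genes. Over the 8 mice, 36 of the 45 pairs of markers correlated positively, with a median Pearson r of 0.33, which was 0.13 in the Cy5 channel alone and 0.49 from the log2 ratios that the authors deposited. The 8 points share arrays and their normalization, and against all 32002 probes with a value on every array the median r of a marker was between -0.01 and 0.06. At an unadjusted permutation p of 0.05, 8 pairs passed, and after Benjamini-Hochberg adjustment over the 45 pairs 0 passed.

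By Pearson r alone, *Sst* and *Cck* were the closest pair (Pearson r = 0.91, permutation p = 0.0036, adjusted p = 0.0815, Spearman rho = 0.79, permutation p = 0.028, adjusted p = 0.18, exact over 8 mice). Without the 2 mice farthest from the median of *Sst*, control mice 3 and 4, r was 0.85. Within control and within BaP-exposed mice r was 0.95 and 0.89, over 4 mice each. In the Cy5 channel alone the pair had an r of 0.46.

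*Slc32a1* and *Npy* had a Pearson r of 0.90 (permutation p = 0.0014, adjusted p = 0.0614, Spearman rho = 0.88, permutation p = 0.0072, adjusted p = 0.161, exact over 8 mice). Without control mouse 4 and BaP-exposed mouse 3, the 2 farthest from the median of *Slc32a1*, r was 0.78, and in the Cy5 channel alone it was 0.85. From the log2 ratios that the authors deposited, r was 0.92 and this pair passed an adjusted permutation p of 0.05 (0.0379). *Pvalb* followed *Vip* (r = 0.82, adjusted permutation p = 0.171) and *Cck* (r = 0.81, adjusted permutation p = 0.123), with an r of 0.40 and 0.58 in the Cy5 channel alone. *Sst* and *Vip* had an r of 0.79 (adjusted permutation p = 0.151) and 0.86 in the Cy5 channel alone. *Gad1*, *Gad2*, *Penk* and *Tac1* had their highest r with another marker at 0.51, 0.41, 0.51 and 0.62.

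**Figure D4:**
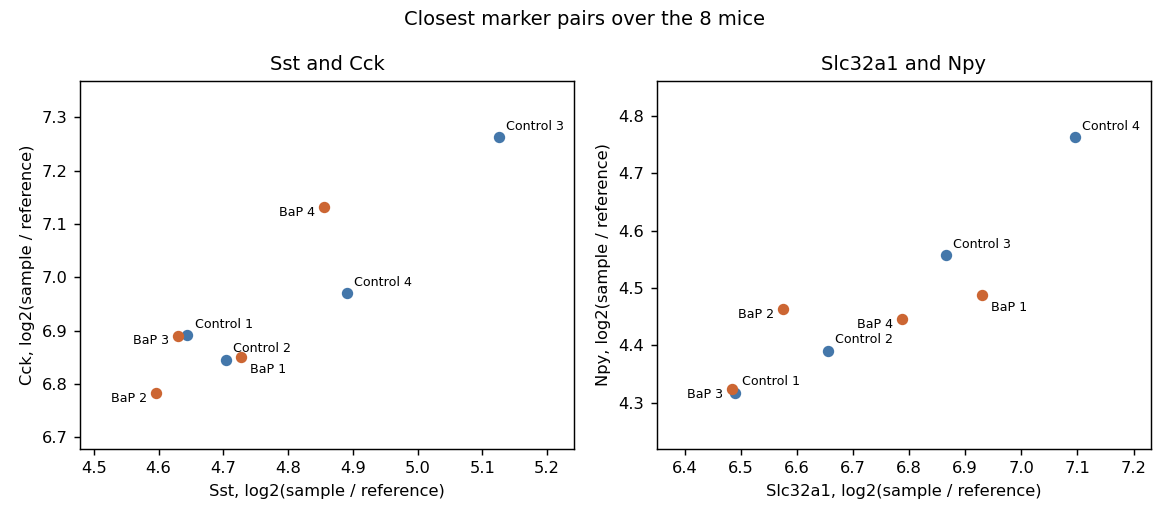
Log2 ratios of sample over reference of *Sst* and *Cck* (left) and of *Slc32a1* and *Npy* (right) in each of the 8 mice, control in blue and BaP-exposed in orange. Control and BaP-exposed mice lie along the same band in both panels, with control mouse 3 (left) and control mouse 4 (right) at the upper end.

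Many probes followed a marker as closely over only 8 mice. For *Sst*, 0.366% of the 32002 probes had an r with it at or above that of *Cck*, and for *Slc32a1*, 0.506% at or above that of *Npy*. The single named genes with the most similar pattern over the 8 mice were *Impact* for *Cck* (r = 0.99), *Arhgdig* for *Vip* and *C130026L21Rik* for *Sst* (0.98 each), and *Rabgap1l* for *Slc32a1* (0.98). For the remaining markers they were *Tgfbr3l* for *Pvalb*, *Ppp1r12a* for *Npy*, *Gstm4* for *Gad1*, *Usp17la* for *Tac1*, *Nrxn3* for *Gad2* and *Nova2* for *Penk*, at an r of 0.94 to 0.97.

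The promoters of the 2 closest pairs by Pearson r and of *Vip* are shown. *Sst* carries a textbook cAMP response element, and the core of that element recurs in *Cck* and *Vip*. The windows hold 250 bases before and 50 after the start of the gene, from RefSeq on GRCm38.p6, on the gene's own strand and 5′ to 3′. Capitals mark the core TGACG or its reverse complement CGTCA, which overlap in the full element TGACGTCA.
Sst (chr16:23890795-23891094, minus strand): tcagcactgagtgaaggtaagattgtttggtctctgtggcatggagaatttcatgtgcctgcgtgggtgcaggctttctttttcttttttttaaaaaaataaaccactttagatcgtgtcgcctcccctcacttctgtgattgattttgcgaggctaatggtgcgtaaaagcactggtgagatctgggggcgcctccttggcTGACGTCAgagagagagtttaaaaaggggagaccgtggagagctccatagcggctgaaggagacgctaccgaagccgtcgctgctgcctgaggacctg
Cck (chr9:121495645-121495944, minus strand): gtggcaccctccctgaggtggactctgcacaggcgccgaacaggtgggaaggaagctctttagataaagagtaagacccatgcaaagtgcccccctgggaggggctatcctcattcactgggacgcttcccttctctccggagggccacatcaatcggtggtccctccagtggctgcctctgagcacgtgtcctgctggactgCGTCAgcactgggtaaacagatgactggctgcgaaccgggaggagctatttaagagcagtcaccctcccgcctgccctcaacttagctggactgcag
Vip (chr10:5638968-5639267, plus strand): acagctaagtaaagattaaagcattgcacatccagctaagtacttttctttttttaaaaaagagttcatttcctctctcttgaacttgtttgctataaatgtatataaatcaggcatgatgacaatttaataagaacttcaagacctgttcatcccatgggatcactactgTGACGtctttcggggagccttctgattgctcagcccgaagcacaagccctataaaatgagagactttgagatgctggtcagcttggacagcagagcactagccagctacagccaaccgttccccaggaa
Slc32a1 (chr2:158610508-158610807, plus strand): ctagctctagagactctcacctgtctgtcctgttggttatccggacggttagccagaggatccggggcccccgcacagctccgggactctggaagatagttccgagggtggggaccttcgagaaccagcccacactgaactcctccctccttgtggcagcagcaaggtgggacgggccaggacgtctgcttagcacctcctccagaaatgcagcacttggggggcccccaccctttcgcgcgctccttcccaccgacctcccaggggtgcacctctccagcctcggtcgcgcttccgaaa
Npy (chr6:49822460-49822759, plus strand): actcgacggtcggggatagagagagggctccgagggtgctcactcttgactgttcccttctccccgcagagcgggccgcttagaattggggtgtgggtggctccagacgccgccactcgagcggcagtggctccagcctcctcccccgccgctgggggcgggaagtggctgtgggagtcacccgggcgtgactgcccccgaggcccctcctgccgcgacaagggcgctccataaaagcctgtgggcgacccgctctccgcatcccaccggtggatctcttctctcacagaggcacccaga

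The full element stood in the *Sst* window alone, at positions -48 to -41 before the start, out of 9 marker genes with a window in the table, and in 1.79% of all 32851 windows. The core, searched on both strands, stood in 5 of the 9 marker genes (*Sst*, *Cck*, *Vip*, *Gad2* and *Tac1*) and in 20.8% of all windows. The windows of *Slc32a1*, *Npy*, *Gad1* and *Pvalb* held no such core. In *Cck* it began at -47 and in *Vip* at -79. These are matches of letters and no measure of binding.

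Around the markers, 76 genes in 6 related lists were examined by their brightest tested probe, and 70 could be tested. In BaP-exposed mice 20 were nominally higher and 50 (71.4%) nominally lower, against 50.5% lower among all tested probes (median log2 fold change -0.10). None passed the adjusted test, where the lowest adjusted p was 0.482 from limma. At an unadjusted p of 0.05, 9 of the 70 passed (12.9%, against 8.7% of all tested probes), 7 lower and 2 higher, and in 3 (4.29%, against 5.07%) the groups did not overlap. With arrays centred on their median in place of loess, which moved the median of all tested probes to 0.17, 28 of the 70 (40.0%) were lower, against 17.0% of all tested probes. In the Cy5 channel alone 39 (55.7%) were lower, against 46.0% of all. Grouped by source name 22 (31.4%) were lower, against 45.7% of all.

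**Figure D5:**
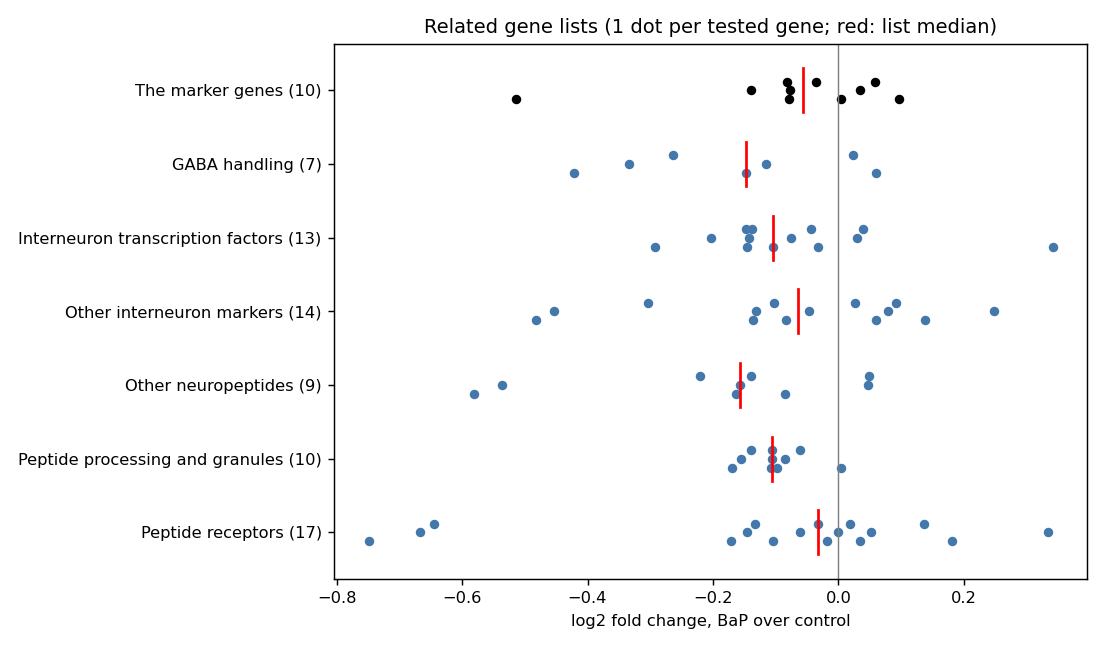
Log2 fold change of BaP-exposed over control mice (horizontal axis) for each tested gene of the marker set (black) and of the 6 related lists (blue, number of tested genes in parentheses), with the list's median in red. List medians lie between -0.16 and -0.03, and the lowest dots are the receptor genes *Sstr1*, *Tacr3* and *Sstr3*.

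Of the genes that clear and sense GABA, 7 of 7 were tested, with 2 higher, 5 lower and a median of -0.15. *Gabbr2*, a subunit of the metabotropic GABA-B receptor, was at 2.83, 2.72, 3.02 and 3.29 in control mice and 2.90, 2.46, 2.50 and 2.67 in BaP-exposed mice, a log2 fold change of -0.33 (SE 0.14, limma's adjusted p = 0.553), and 0.24 grouped by source name. *Slc6a13*, a GABA transporter of the meninges and vessels, had the largest difference in the list at -0.42 (SE 0.47), with 0.94 to 3.11 in control mice and 1.35 to 2.93 in BaP-exposed mice. Without control mouse 4 it was -0.88 and without control mouse 3 -0.16. It was 0.40 on the 4 arrays whose labels disagree and -0.82 grouped by source name.

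Of 14 transcription factors of the interneuron lineage, 13 were tested, with 3 higher, 10 lower and a median of -0.10. *Maf*, a factor of somatostatin and parvalbumin cells that is also made by microglia, was nominally higher by 0.34 (SE 0.11, limma's adjusted p = 0.5). Its groups overlapped, and grouped by source name it was at -0.07.

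Of 17 other interneuron markers, 14 were tested, with 6 higher, 8 lower and a median of -0.07. The largest differences were those of *Grik1*, a kainate receptor subunit, at -0.48 (SE 0.25) and *Kit*, a receptor tyrosine kinase, at -0.45 (SE 0.31). *Grik1* had control mouse 2 at 2.98 while the other 7 mice lay between 1.30 and 2.03, and its difference was -0.21 without that mouse. *Kit* was at -0.69 without BaP-exposed mouse 1, at -0.25 without BaP-exposed mouse 3 and at 0.48 grouped by source name. *Erbb4*, *Chodl* and *Elfn1* had no tested probe under their name.

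Of 10 other neuropeptides, 9 were tested, with 2 higher, 7 lower and a median of -0.16. *Tac2*, which encodes neurokinin B, was 2.74, 3.54, 3.25 and 2.72 in control mice and 2.78, 2.38, 2.27 and 2.69 in BaP-exposed mice. The overlap came from BaP-exposed mouse 1 alone, and the log2 fold change was -0.54 (SE 0.19, limma's adjusted p = 0.518). *Grp*, which encodes gastrin-releasing peptide, was at -0.58 (SE 0.34, limma's adjusted p = 0.645). BaP-exposed mice 2 and 3 held its lowest values, at 3.27 and 3.33. Its difference was -0.36 without BaP-exposed mouse 2 and 0.18 grouped by source name, where that of *Tac2* was -0.03.

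Of the 10 genes of peptide processing and secretory granules, all were tested, 9 were nominally lower and the median was -0.11, in a narrow range of -0.17 to 0.0044. *Chgb*, which encodes the granule protein chromogranin B, was 8.83, 8.83, 8.72 and 8.85 in control mice and 8.68, 8.60, 8.63 and 8.71 in BaP-exposed mice. The groups lay apart by a narrow gap (exact 2-sided permutation p = 0.0286, the smallest possible), and the log2 fold change was -0.16 (SE 0.073, limma's adjusted p = 0.585). It was 0.07 in the Cy5 channel alone, so its direction was not the same under both scalings. *Vgf*, a granule protein gene, was the lowest of the list at -0.17 (SE 0.10), and was 0.0068 in the Cy5 channel alone, 0.098 with arrays centred on their median and 0.013 grouped by source name. Without BaP-exposed mouse 2 it was -0.11.

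Of 18 receptors for the peptides, 17 were tested, with 6 higher, 11 lower and a median of -0.03. *Sstr3*, a somatostatin receptor of neuronal cilia, was 4.31, 4.55, 4.15 and 4.08 in control mice and 4.04, 3.51, 3.25 and 3.72 in BaP-exposed mice. The groups did not overlap, and the log2 fold change was -0.64 (SE 0.17, limma's adjusted p = 0.482). It was negative in all 25 alternative settings, 7 of which keep the fold change by construction. The lowest was -0.78 without BaP-exposed mouse 1, and grouped by source name it was only -0.02.

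*Sstr1*, another somatostatin receptor, had the largest difference at -0.75 (SE 0.27, limma's adjusted p = 0.518), with 4.20, 4.76, 5.34 and 4.58 in control mice and 4.25, 3.63, 3.51 and 4.49 in BaP-exposed mice. The neurokinin receptor *Tacr3* was at -0.67 (SE 0.28, limma's adjusted p = 0.555). Grouped by source name *Sstr1* was at 0.21 and *Tacr3* at -0.21. From the processed signals of the scanner software *Tacr3* was at -2.07. *Npy5r*, a receptor for neuropeptide Y, was 0.22, 0.25, 0.32 and 0.09 in control mice and 0.33, 0.39, 0.55 and 0.33 in BaP-exposed mice, nominally higher by 0.18 (SE 0.086, limma's adjusted p = 0.591) without overlap, and at -0.05 grouped by source name.

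Markers of other cell types moved between the mice as well. All 8 choroid plexus genes were nominally higher in BaP-exposed mice, with a median of 0.76 and 0 past the adjusted test, and their mean level about each gene's own mean ran from -1.23 to 0.51 in control mice and from -1.74 to 1.46 in BaP-exposed mice. The 2 highest were BaP-exposed mice 3 and 2, at 1.46 and 1.09. Of the 9 markers of hippocampal principal neurons 7 were nominally higher (median 0.25), and of the 8 striatal markers 4 were (median 0.03). The 3 red blood cell genes were lower in every BaP-exposed mouse, with a median of -1.05, and 2 of them passed the adjusted test. Medians of the remaining lists were 0.19 for 4 thalamic genes, -0.12 for 4 neocortical genes and -0.01 for 5 hypothalamic genes. They were -0.07 for 4 astrocyte genes, -0.11 for 4 oligodendrocyte genes and -0.06 for the second interneuron list, which largely repeats the markers. The part of these cell types in the values above was not tested.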

How the data were processed

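The deposited scanner output gives the intensity of each spot in both channels, made with Agilent Feature Extraction 11.0.1.1 on an array design of build mm9, and the authors added a table of log2 ratios that the paper's methods describe as LOWESS-normalized. Spot median intensities were corrected with normexp (offset 50; limma 3.58.1, R 4.3.3). After control spots had been left out, log2 ratios of Cy5 over Cy3 were normalized by loess within arrays, with outlier spots included. Outlier spots were then set to missing, and the remaining spots of a probe were averaged. A probe had to be well above background in the Cy5 channel of 4 or more of the 8 arrays. The remaining 32600 of 55681 probes were fitted with lmFit and eBayes, with Benjamini-Hochberg adjustment over all of them. The call needed a 1.5-fold difference at an adjusted p of 0.05. Of 28685 probes with a RefSeq accession, 27235 (94.9%) were named through a RefSeq table of GRCm38.p6. The deposited log2 ratios correlated with the normalized ratios at an r of 0.9979 to 0.9988 per array and served as an alternative.

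Per array, the median Cy5 intensity was 108 to 174 over a background of 67 to 71, and 56.6% to 67.4% of spots were well above background. Control mouse 1 had 1483 outlier spots, against 310 to 371 elsewhere. The number of arrays limits the precision.

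The marker genes and lists were chosen with earlier results of these data known. Named are every probe of the markers, genes of a list whose groups do not overlap, the 2 largest differences of each list, and the gene most similar to each marker. The values of 1 gene are not reported here. Other genes named, such as cell type markers, came from their lists. Probes too dim in Cy5 were not tested. Exact permutation tests were 2-sided, over 70 assignments for groups and over all orders of the 8 mice for correlations, in Python 3.11.15 with numpy 2.4.6, scipy 1.17.1 and pandas 2.3.3. The fit was tested on simulated data. The alternatives covered background, normalization, filter, channel, blocks, test, labels and each mouse left out. The authors' other data types were not used here.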

Additional observations from a re-analysis of the deposited data

Results flagged for a closer look

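*Penk* in BaP-exposed mouse 4, at a log2 ratio of 4.42, lay apart from the other 3 BaP-exposed mice, at 4.99 to 5.05. The gap to its nearest neighbor was 0.910 of the group's range, above Dixon's 95% critical value for 4 samples. Of 52 groups of 4 examined this way for the markers and the named list genes, 1 stood out, where chance gives 2.6.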

How the results depend on the processing

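None of the marker genes and none of the genes in the related lists passed the adjusted test in any of the 25 alternatives, 24 of which had been planned; the scanner software's processed signals were added after the data were seen, as were the alternatives for the related lists and the correlations. A fit on spot means was not run, because the scanner files used here hold spot medians. In 7 alternatives (Aquantile, both filters, both blocks, the robust fit and the F test) fold changes are those of the reported fit by construction. Of the 216 fold changes of single probes in the other 18, 171 kept their sign and 45 changed it. Over all probes the count of 3 calls became 0 with plain background subtraction, the processed signals, either slide row alone, the gene-wise F test and source-name groups, 5 without the filter, 6 for Cy5 alone and for the robust fit with an intensity trend, and 1 to 3 with a mouse left out (1 without control mouse 1, 3 or 4 or BaP-exposed mouse 2).

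Same-numbered mice did not deviate together (r of -0.35 to 0.03, against -0.31 to 0.34 for mice of different numbers). With so few mice this cannot tell whether the numbers pair them. With the replicate block, which cannot move a fold change here, 2 probes passed. The median of the markers moved to 0.18 with median centring, which moved all probes by 0.17, to 0.14 on slide row 1 (7 of 10 genes higher), to -0.13 on slide row 2 (10 of 10 lower) and to 0.15 with source-name groups, and lay between -0.09 and 0.01 with a mouse left out. Of the related genes 28 were lower with median centring, 39 on slide row 1, 53 on slide row 2, 22 with source-name groups and 43 to 56 with a mouse left out. Among the correlations 1 pair passed with the authors' log2 ratios.

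Signs changed as follows. Without background correction *Gad2* was 0.027. With median centring *Gad2* was 0.18, *Slc32a1* 0.17, *Sst* 0.12, *Npy* 0.14 and *Cck* 0.18. In Cy5 alone *Gad2* was 0.071, *Slc32a1* 0.094, *Npy* 0.11, *Vip* -0.11 and *Cck* 0.11. With the processed signals *Gad1* was -0.042 and *Pvalb* -0.0065. On slide row 1 *Gad2* was 0.036, *Slc32a1* 0.18 and *Npy* 0.12. On slide row 2 *Gad1* was -0.12, the dimmer *Slc32a1* probe -0.33, *Pvalb* -0.071, the dimmer *Pvalb* probe -0.32, *Vip* -0.15 and *Penk* -0.10. With source-name groups *Gad2* was 0.071, *Slc32a1* 0.26, *Sst* 0.13, *Npy* 0.20, *Cck* 0.027 and *Tac1* 0.33. With a mouse left out, ranges that crossed 0 were -0.038 to 0.13 for *Gad1*, -0.090 to 0.021 for *Gad2*, -0.18 to 0.024 and -0.062 to 0.18 for the brighter and dimmer *Slc32a1* probes, -0.028 to 0.16 and -0.028 to 0.39 for those of *Pvalb*, -0.14 to 0.0083 for *Npy*, -0.077 to 0.093 for *Vip* and -0.15 to 0.012 for *Cck*. The cause was not tested. Weak reference signals limit the ratios of *Vip*, *Tac1* and the dimmer *Pvalb* probe.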
